A study of Mus musculus with 12 samples.

Results

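A set of 5 genes of itaconate, nitric oxide and arginine metabolism were followed across mouse gingiva: Acod1, Nos2, Gch1, Ass1 and Slc7a2. They were chosen by name, with earlier results of these libraries known, and are 5 of the 21965 genes in the count table. The levels and folds below are therefore a description of these genes, and nothing is supported by their choice. Gingival mRNA was sequenced from 12 mice in 4 groups of 3 mice. The WT naive group held unligated C57BL/6 wild-type mice (C57BL/6J in the study's methods), and the WT ligated group held mice of the same strain with a silk ligature tied around a maxillary molar for 8 days, a model of periodontitis. The CybbKO naive and CybbKO ligated groups held Cybb-/- mice, unligated or ligated for 8 days in the same way. Cybb encodes the catalytic subunit of the Nox2 NADPH oxidase, and the knockout is carried in all cells of the animal. All mice were under 12 weeks old and were matched for age and sex between groups.

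Acod1 makes itaconate from cis-aconitate, an intermediate of the tricarboxylic acid (TCA) cycle, and is known as a gene that activated macrophages and neutrophils induce strongly. Itaconate slows succinate dehydrogenase and alters the inflammatory response of the cell that makes it. Nos2 makes nitric oxide from arginine and needs tetrahydrobiopterin, whose synthesis begins with Gch1. Ass1 takes part in making arginine again from citrulline, and Slc7a2 carries arginine into the cell.

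The 12 libraries held between 27958819 and 42613423 counts, and 15046 genes passed the filter on low counts, all 5 genes among them. Levels are given as CPM, a gene's counts relative to the total of its library after TMM scaling. Cybb itself stood against the labels. Its level was 4.19 to 5.60 CPM in WT naive, 8.41 to 15.2 in WT ligated, 41.6 to 56.3 in naive mice labelled CybbKO and 51.1 to 63.7 in ligated mice labelled CybbKO. It was higher in the libraries labelled CybbKO by 3.24 on the log2 scale in naive tissue (edgeR quasi-likelihood test, adjusted p = 0.000128) and by 2.23 in ligated tissue (edgeR, adjusted p = 0.00420). The counts are summed over the gene and do not show whether its reads came from a disrupted part, so "labelled CybbKO" is used throughout. Epithelial markers (keratins and adhesion genes, summed over 9 genes) were high in every library, at 59634 to 123724 CPM. WT naive replicate 3 stood apart. Muc5b, a mucin of salivary glands, was at 28943 CPM there and at 55.6 to 4979 CPM in the other libraries, the water channel Aqp5 at 113 against 0.274 to 18.6 CPM, Epcam at 153 against 37.7 to 80.5 CPM, and Pycr1, of the proline list below, at 24.2 against 2.59 to 10.7 CPM. Without that library edgeR still called 2 of the 5 genes with ligature in WT. Calls over all genes were then 737 of 15185, against 481 of 15046 with it. The salivary gland marker Prol1 was at 0 in every library.

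Promoter sequence was at hand for 3 of the 5 genes, and these 3 differ in response: Acod1 rose with ligature, Gch1 passed no test and Ass1 fell. The sequences below show the RefSeq bases upstream of each start on GRCm38.p6, 5′ to 3′ on the gene's own strand, with bases that GENCODE counts inside the gene left out and motif matches in capitals. Positions below count bases before the RefSeq start.
Acod1: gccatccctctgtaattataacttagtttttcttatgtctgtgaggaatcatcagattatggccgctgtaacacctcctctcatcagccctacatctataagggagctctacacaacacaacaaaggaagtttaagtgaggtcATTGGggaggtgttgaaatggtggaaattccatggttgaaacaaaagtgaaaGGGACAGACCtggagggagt
Gch1: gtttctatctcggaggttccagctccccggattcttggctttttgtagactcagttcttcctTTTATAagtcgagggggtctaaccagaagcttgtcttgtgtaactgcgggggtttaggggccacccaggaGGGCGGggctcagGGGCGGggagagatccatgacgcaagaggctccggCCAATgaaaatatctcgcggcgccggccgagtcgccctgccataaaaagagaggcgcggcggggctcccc
Ass1: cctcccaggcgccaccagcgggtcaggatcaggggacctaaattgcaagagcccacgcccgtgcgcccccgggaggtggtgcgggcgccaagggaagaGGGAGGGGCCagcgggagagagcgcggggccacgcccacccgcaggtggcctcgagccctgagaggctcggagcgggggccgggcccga
The printed Acod1 stretch is chr14:103046762-103046976 on the plus strand, the Gch1 stretch is chr14:47189414-47189663 on the minus strand, and the Ass1 stretch is chr2:31470020-31470206 on the plus strand. Motifs were searched on both strands in the 250 bases before each start, and in 32851 promoters of the same length. The Acod1 promoter held an NF-kB motif, written here as GGGA and CC with 4 bases of any kind between them, matched by GGGACAGACC at 55 to 46 bases before the start. The same motif was matched in the Ass1 promoter by GGGAGGGGCC at 152 to 143 bases before the start, and 17.6% of all promoters hold it. Acod1 also held a TATA box, TATAAA, at 28 to 23 bases before its start, outside the printed stretch, and 12.4% of promoters hold this motif. A CAAT box, CCAAT, which 33.8% of promoters hold, stood in Acod1 on the opposite strand at 107 to 103 bases and in Gch1 at 70 to 66 bases. A GC box, GGGCGG, which 32.7% of promoters hold, was found in Gch1 at 118 to 113 and 105 to 100 bases, and in Ass1 at 63 to 58 bases, outside the printed stretch. Gch1 carried TATAAA on the opposite strand at 188 to 183 bases. The interferon response element, GAAA and GAAA with 2 bases of any kind between them, the STAT motif TTCNNNGAA, the C/EBP motif TTGCNNAA, the AP-1 motif TGANTCA and the antioxidant response element TGANNNNGC were not found in any of the 3 promoters; they are in 2.98%, 7.02%, 9.56%, 6.75% and 35.2% of all promoters. These are matches of letters in a window, not bound sites. GC content over the 250 bases before the start was 44.4% in Acod1, 59.2% in Gch1 and 75.6% in Ass1.

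The plot of the 5 genes by library shows the pattern at a glance. Acod1 (ENSMUSG00000022126, chr14:103046977-103056573, plus strand) was the most responsive of the 5.

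**Figure D1:**
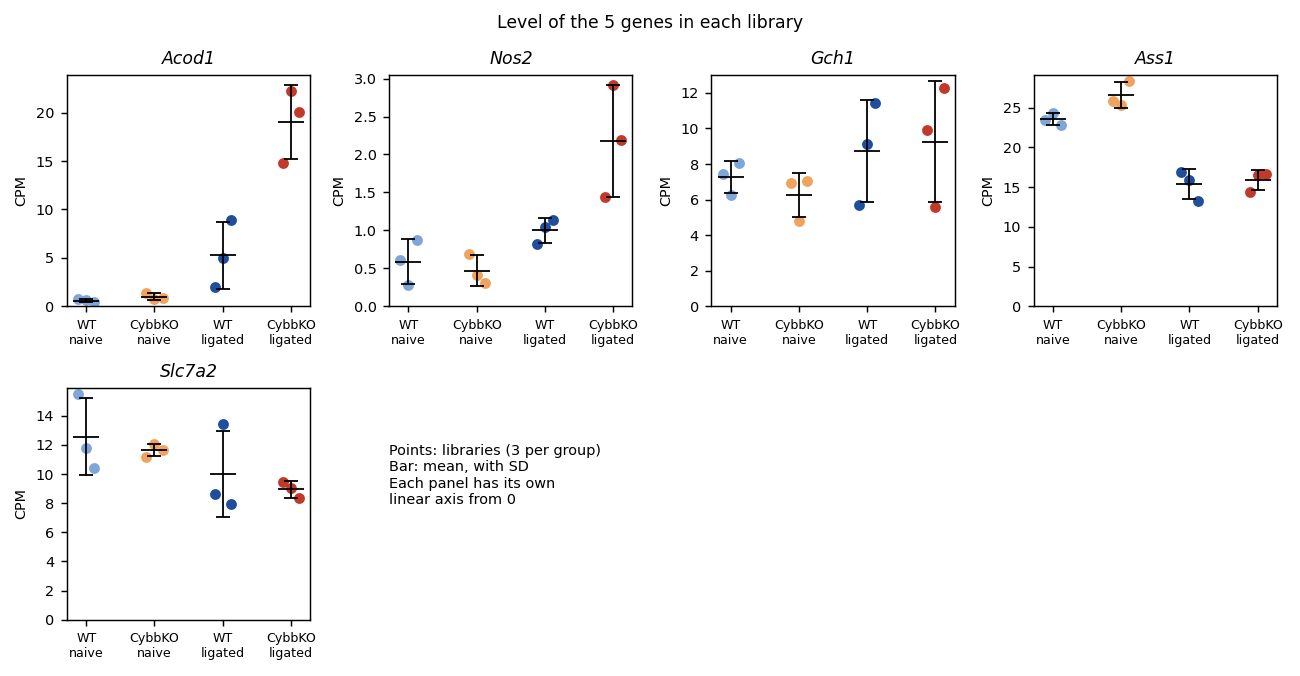
CPM of each gene (linear vertical axis from 0, its own scale in each panel) in the 12 libraries, by group; each point is a library, with the group mean and SD as bars. Acod1 is highest in the ligated mice labelled CybbKO, at 14.8 to 22.2 CPM, while Ass1 is lower in both ligated groups than in both naive groups.

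Acod1 was at 0.731, 0.633 and 0.401 CPM in WT naive, at 1.39, 0.721 and 0.885 CPM in the naive mice labelled CybbKO, at 1.99, 4.97 and 8.87 CPM in WT ligated, and at 14.8, 22.2 and 20.01 CPM in the ligated mice labelled CybbKO. Both ligated groups lay above both naive groups with no overlap, the ligated groups did not overlap each other, and the naive groups overlapped. The SD was 3.45 CPM in WT ligated and 3.799 CPM in the ligated mice labelled CybbKO, so the WT ligated values were the more spread relative to their mean of 5.28 CPM, against 19.01 CPM. Ligated against naive, Acod1 was 8.86-fold higher in WT (log2 fold change 3.15, SE 0.50, edgeR adjusted p = 0.0122) and 19.01-fold higher in the libraries labelled CybbKO (4.25, SE 0.50, edgeR adjusted p = 0.00185). The WT log2 fold change was 2.55 without WT ligated replicate 3 (edgeR adjusted p = 0.0317). The WT call was lost without WT naive replicate 2 (3.20, edgeR adjusted p = 0.0744). Calls over all genes were then 27 of 15206, against 481 of 15046 with it. The call of Acod1 in the libraries labelled CybbKO was kept in all settings tried.

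Nos2 (ENSMUSG00000020826, chr11:78920787-78960254, plus strand), the inducible nitric oxide synthase, was low in all groups. It was at 0.609, 0.285 and 0.875 CPM in WT naive, at 0.693, 0.416 and 0.305 CPM in the naive mice labelled CybbKO, at 0.821, 1.05 and 1.14 CPM in WT ligated, and at 1.44, 2.92 and 2.19 CPM in the ligated mice labelled CybbKO. The ligated libraries labelled CybbKO were above all others. WT ligated overlapped WT naive and lay above the naive libraries labelled CybbKO, and the naive groups overlapped. Between 9 and 109 reads were counted on Nos2 per library, so counting error adds to its spread. In the libraries labelled CybbKO it was 4.59-fold higher with ligature (log2 fold change 2.20, SE 0.44, edgeR adjusted p = 0.00838), and in WT the difference of 0.77 (SE 0.44) did not pass the test (edgeR adjusted p = 0.354). Gch1 (ENSMUSG00000037580, chr14:47153895-47189413, minus strand), the first enzyme of tetrahydrobiopterin synthesis, ran from 4.83 to 12.3 CPM over the 12 libraries, and its 4 groups overlapped. Its log2 difference with ligature was 0.27 (SE 0.31) in WT and 0.56 (SE 0.31) in the libraries labelled CybbKO, neither past the test.

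Ass1 (ENSMUSG00000076441, chr2:31470207-31520672, plus strand), argininosuccinate synthase, went the other way. It was at 23.5, 24.3 and 22.8 CPM in WT naive, at 25.8, 25.4 and 28.4 CPM in the naive mice labelled CybbKO, at 16.9, 15.9 and 13.2 CPM in WT ligated, and at 14.4, 16.5 and 16.7 CPM in the ligated mice labelled CybbKO. All 6 ligated libraries were below all 6 naive ones, and the ligated groups overlapped. Its log2 fold change with ligature was -0.61 (SE 0.13, edgeR adjusted p = 0.0282) in WT and -0.74 (SE 0.13, edgeR adjusted p = 0.00437) in the libraries labelled CybbKO. The WT call sat near the threshold and was kept in 6 of the 14 alternative settings. Ass1 shares 99.5% identity over 1240 bases with the processed pseudogene Gm5424, so reads of the pair could be shared or dropped and its level is uncertain. Slc7a2 (ENSMUSG00000031596, chr8:40862396-40922308, plus strand), the cationic amino acid transporter, ran from 7.97 to 15.5 CPM. Its log2 difference was -0.33 (SE 0.21) in WT and -0.38 (SE 0.21) in the libraries labelled CybbKO, neither past the test, although the latter groups did not overlap. Gch1 overlaps the processed pseudogene Gm18811 on its own strand, which counting by strand does not separate, so reads there are uncertain. Other genes lie on the opposite strand within Gch1 and Slc7a2.

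Counted over the 5 genes, ligature called 2 in WT, Acod1 higher and Ass1 lower, where 3.2% of all 15046 genes were called, 0.884% lower and 2.31% higher. Among the libraries labelled CybbKO it called 3, Acod1 and Nos2 higher and Ass1 lower, where 13% of all genes were called, 9.95% higher and 3.04% lower. DESeq2 called as many of the 5, 2 against 8.93% of all genes and 3 against 17.8%. Without overlap between ligated and naive libraries were 2 of the 5 in WT, against 24.9% of all genes, and 4 of the 5 in the libraries labelled CybbKO, against 31.4%. The median log2 fold change of the 5 was 0.27 in WT, where all genes had a median of -0.026, and 0.56 in the libraries labelled CybbKO, where all genes had -0.034. The 2 ligature comparisons are of separate mice. A gene called in 1 and not in the other is not thereby shown to differ between them.

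**Figure D2:**
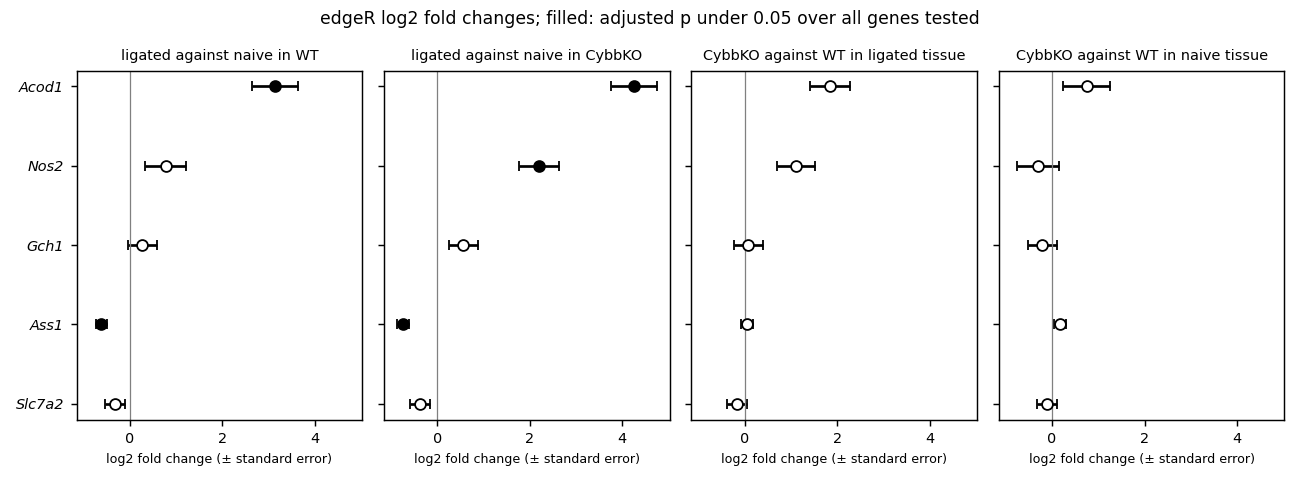
Log2 fold change of each of the 5 genes in the 4 pairwise comparisons, with bars of 1 standard error from edgeR; filled points passed the adjusted p threshold of 0.05. The largest values are those of Acod1 with ligature, 3.15 in WT and 4.25 in the libraries labelled CybbKO, and Ass1 is below 0 in both.

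The comparison of genotypes asked whether the libraries labelled CybbKO differed from WT within the same tissue state. In ligated tissue Acod1 was 3.60-fold higher in the libraries labelled CybbKO (log2 difference 1.85, SE 0.44), with an unadjusted p of 0.00122 in edgeR's fit and an adjusted p of 0.996. It passed in DESeq2 (adjusted p = 0.0250), and also in DESeq2 on the 6 ligated libraries alone (adjusted p = 0.0123). With single libraries left out the log2 difference ran from 1.43, when WT ligated replicate 1 was dropped, to 2.45, when WT ligated replicate 3 was. Nos2 was 2.17-fold higher (1.12, SE 0.41, unadjusted p = 0.0194 in edgeR) and was not called. Gch1, at 0.081 (SE 0.31), Ass1, at 0.048 (SE 0.13), and Slc7a2, at -0.16 (SE 0.21), lay within 1 SE of 0. By edgeR 0 of the 5 were called, where 0.00665% of all genes, Cybb alone, were. An unadjusted p under 0.05 was reached by 2 of the 5, against 3.34% of all genes, and DESeq2 called 1, against 0.112%. Acod1 and Nos2 did not overlap between genotypes, 2 of the 5 against 7.84% of all genes. With 3 mice against 3 the smallest exact two-sided permutation p is 0.1, which both genes reached.

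In naive tissue edgeR called 0 of the 5, where 0.00665% of all genes were, DESeq2 called 0 as well, against 0.011%, and 0 had an unadjusted p under 0.05 in edgeR, against 2.03%. Acod1 differed by 0.75 (SE 0.51), with overlapping libraries. Ass1 was the single gene whose libraries did not overlap, at a log2 difference of 0.17 (SE 0.13), against 5.11% of all genes. The interaction, the log2 ligature response in the libraries labelled CybbKO minus that in WT, was 1.43 (SE 0.62) for Nos2 (unadjusted p = 0.0398 in edgeR) and 1.10 (SE 0.67) for Acod1, which ranged from 0.68, with WT ligated replicate 1 left out, to 1.70, with replicate 3 of that group left out. For the other 3 genes it lay between -0.13 and 0.29. No gene of the whole table was called for it by edgeR, a share of 0%, nor by DESeq2, and an unadjusted p under 0.05 in edgeR was reached by 1 of the 5, Nos2, against 2.27% of all genes. These values did not pass the adjusted test, so a difference in ligature response between genotypes was not detected with 3 mice a group.

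Markers of other cell types were summed in the same libraries. The neutrophil list, 10 genes with S100a8, S100a9 and Csf3r among them, summed to 389 to 891 CPM in WT naive, 839 to 958 in naive mice labelled CybbKO, 1353 to 3853 in WT ligated and 2567 to 11730.3 in ligated mice labelled CybbKO. With ligature edgeR called 1 of the 10 higher in WT and 8 in the libraries labelled CybbKO. Of all genes 2.31% and 9.95% were called higher in these comparisons. The monocyte and macrophage list, 10 genes with Csf1r, Cd68 and Adgre1 among them, summed to 258 to 300 CPM in WT naive, 242 to 251 in naive mice labelled CybbKO, 337 to 499 in WT ligated and 417 to 646 in ligated mice labelled CybbKO, with 3 and 9 of 10 called higher. The naive groups thus stood in the opposite order in the means of these 2 lists. The T and NK cell list, 7 genes in the table, summed to 2.11 to 8.77, 5.69 to 8.79, 8.30 to 13.1 and 13.6 to 18.5 CPM in WT naive, naive labelled CybbKO, WT ligated and ligated labelled CybbKO libraries, so the ligated groups did not overlap. Of its 6 tested genes edgeR called 0 higher with ligature in WT, 1 in the libraries labelled CybbKO and 0 between genotypes. Between genotypes in ligated tissue edgeR called no neutrophil or monocyte marker either, but all 10 of each list lay above 0 in the libraries labelled CybbKO against WT, with median log2 differences of 1.31 and 0.52. An unadjusted p under 0.05 was reached by 6 of the neutrophil and 4 of the monocyte and macrophage genes, against 3.34% of all genes. The fibroblast list, 6 genes with Col1a1 and Pdgfra among them, did not overlap between ligated and naive tissue, at 3867 to 10396 CPM in ligated libraries and 1390 to 2917 CPM in naive ones, with 2 of 6 called higher in WT and 5 in the libraries labelled CybbKO. No defining marker of these lists was at 0 in all libraries. Ligated replicate 2 labelled CybbKO was the lowest of its group in all 4 sums, with 3867 CPM of fibroblast markers against 9404 and 10396 CPM, and the highest in Acod1 and Nos2. Single genes of those lists did not all follow. Mmp8, Ngp and Retnlg (neutrophil), C1qa and C1qb (monocyte and macrophage), and Cd8a and Ncr1 (T and NK cell) were highest there. The other genes of the lists were lowest there, except Lcn2. Without that replicate edgeR called 3 of the 5 genes with ligature in the libraries labelled CybbKO, as with it. Calls over all genes were then 2949 of 15172, against 1954 of 15046 with it. Acod1 then differed between genotypes in ligated tissue by 1.72 on the log2 scale. In whole tissue, more cells of a type and more RNA per cell cannot be told apart.

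**Figure D3:**
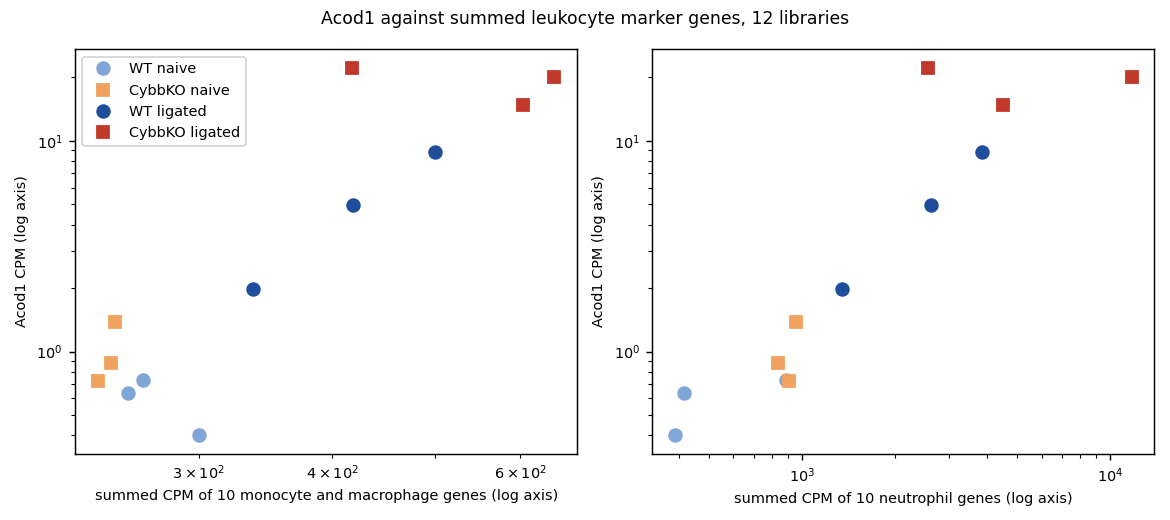
Acod1 CPM against the summed CPM of the monocyte and macrophage markers and of the neutrophil markers (logarithmic axes), 1 point a library, by group. The ligated libraries labelled CybbKO lie above the WT ligated libraries in Acod1, at 14.8 to 22.2 against 1.99 to 8.87 CPM, and both marker sums of these groups overlap, although all 10 genes of each list had a log2 difference above 0, with medians of 1.31 for neutrophils and 0.52 for monocytes and macrophages.

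Set against these sums, Acod1 was 0.591%, 1.19% and 1.78% of the monocyte and macrophage sum in WT ligated, and 2.45%, 5.32% and 3.10% in the ligated libraries labelled CybbKO. Those groups did not overlap, nor did either overlap its naive group, at 0.134% to 0.275% in WT naive and 0.299% to 0.553% in naive libraries labelled CybbKO. Relative to the neutrophil sum, Acod1 was 0.147% to 0.230% in WT ligated and 0.171% to 0.865% in the ligated libraries labelled CybbKO, and these groups overlapped. WT ligated also overlapped WT naive there, at 0.082% to 0.152%, while the ligated libraries labelled CybbKO did not overlap their naive group, at 0.0796% to 0.145%. Nos2 was 0.229% to 0.250% of the monocyte and macrophage sum in WT ligated and 0.238% to 0.699% in the ligated libraries labelled CybbKO, and each overlapped the other and its own naive group. Relative to the neutrophil sum, Nos2 was 0.0296% to 0.0607% in WT ligated, below WT naive at 0.0684% to 0.225% with no overlap. It was 0.0187% to 0.114% in the ligated libraries labelled CybbKO, which overlapped their naive group at 0.0364% to 0.0723%. The part of these cell types in the differences of the 5 genes was not tested.

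Between genes, levels were compared as CPM per kilobase of exon. Ass1 stood first in 3 of the 4 groups, at 9.74 ± 0.313 in WT naive, 10.99 ± 0.674 in naive mice labelled CybbKO and 6.36 ± 0.789 CPM per kilobase in WT ligated (SD, n = 3 each). Nos2 stood last in all 4, from 0.107 to 0.494 CPM per kilobase in the group means. Acod1 moved from rank 4 in both naive groups to rank 2 in WT ligated and rank 1 in the ligated mice labelled CybbKO. There it was at 7.25 ± 1.45 and Ass1 at 6.57 ± 0.522 CPM per kilobase (SD, n = 3), which do not differ beyond their spread. Nor do Acod1 at 2.01 ± 1.32, Gch1 at 1.40 ± 0.458 and Slc7a2 at 1.10 ± 0.325 in WT ligated, so rank 2 there is uncertain.

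Genes with the most similar levels over the 12 libraries were named by Pearson's r of log2 CPM, as a description, since the points share the ligature contrast and the cell makeup that moves with it. Acod1 was closest to Parvg (r = 0.982), Rac2 (0.978), a small GTPase of blood cells that serves the Nox2 oxidase, and Hcls1 (0.976), a signalling adaptor of blood cells. Nos2 was closest to Tnfaip8l2 (0.956), Ccr1l1 (0.951) and Arsg (0.937). Gch1 was closest to Fndc4 (0.958), Hrh1 (0.931), a histamine receptor, and Mkx (0.925), Ass1 to Plk5 (0.974), Exosc7 (0.973) and Gtf2h3 (0.959), and Slc7a2 to Mipol1 (0.923), Dimt1 (0.880) and Meis2 (0.875). Among the 5 themselves, Acod1 and Nos2 had r = 0.865, and Acod1 and Ass1 -0.829.

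The neighbouring genes of these pathways were counted list by list. In the itaconate and TCA cycle list, 20 of 21 genes were tested (Oxgr1 was too low), and none was called with ligature in either genotype; 3 had an unadjusted p under 0.05 in the libraries labelled CybbKO, where 27.7% of all genes did, and 0 in WT, where 19.9% did. Its median log2 fold change with ligature was -0.095 in WT and -0.22 in the libraries labelled CybbKO, where all 20 tested genes lay below 0, at -0.40 to -0.077. In naive tissue all 20 lay above 0 in the libraries labelled CybbKO against WT, with a median of 0.097. These 2 comparisons share the naive libraries labelled CybbKO. Of the 9 epithelial markers 7 lay below 0 with ligature and 7 above 0 in naive tissue, with medians of -0.34 and 0.12. The neutrophil medians were 2.66 and 0.64 and the fibroblast medians 2.45 and -0.62. The 6 skeletal muscle genes had medians of -0.20 and 0.63. With ligature 3 of them lay above 0 and 3 below, and in naive tissue 5 lay above 0 and 1 below. The part of these cell types in the TCA values was not tested. In the nitric oxide and tetrahydrobiopterin list, 15 of 16 genes were tested. Ligature called Ddah1, which breaks down methylarginines that inhibit nitric oxide synthases, higher in WT (log2 fold change 1.72, edgeR adjusted p = 0.0248). It was 1 of the 15. Of all genes 2.31% were called higher in WT and 9.95% in the libraries labelled CybbKO. In the libraries labelled CybbKO 5 rose, among them Ddah1 (2.51, edgeR adjusted p = 0.00207), the cyclic GMP phosphodiesterase Pde5a (1.24, 0.00998), the kinase Prkg1 (1.67, 0.0121) and Gucy1a1, a subunit of the nitric oxide receptor (0.79, 0.0163). Pde5a, Prkg1 and Gucy1a1 belong to the cyclic GMP arm downstream of nitric oxide, known from smooth muscle and vessels. The endothelial marker sum was 205 to 319 CPM in ligated libraries and 108 to 143 CPM in naive ones. The fibroblast sum was 3867 to 10396 CPM in ligated libraries and 1390 to 2917 CPM in naive ones. The part of either cell type in these differences was not tested. Nos3, the endothelial synthase, differed by 0.91 in WT and 0.98 in the libraries labelled CybbKO and was not called.

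**Figure D4:**
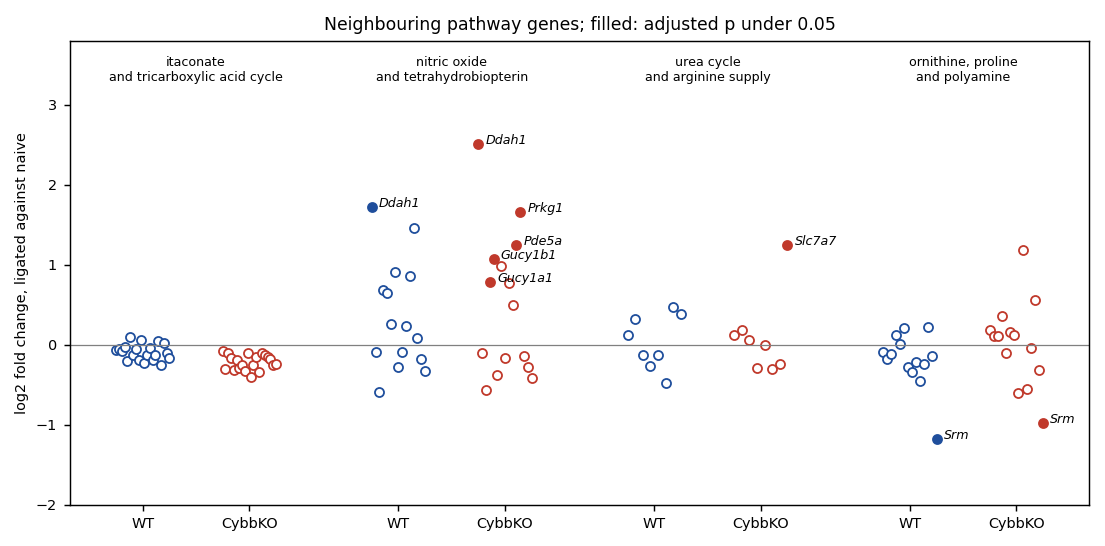
Log2 fold change with ligature of every tested gene of 4 pathway lists, in WT and in the libraries labelled CybbKO; filled, named points had an edgeR adjusted p under 0.05. TCA cycle genes stay close to 0, between -0.40 and 0.094, while Ddah1 stands at 1.72 in WT and 2.51 in the libraries labelled CybbKO.

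Of the urea cycle and arginine supply list, 8 of 12 genes were tested, since Cps1, Otc, Nags and Agmat were too low. None was called in WT, where 3.2% of all genes were. Slc7a7, a transporter of cationic amino acids in macrophages and epithelium, rose in the libraries labelled CybbKO (log2 fold change 1.25, edgeR adjusted p = 0.0437). It was 1 of 8 there, near the 9.95% of all genes called higher. Of the ornithine, proline and polyamine list all 14 were tested. Spermidine synthase, Srm, fell in both genotypes, with a log2 fold change of -1.18 in WT (edgeR adjusted p = 0.0439) and -0.98 in the libraries labelled CybbKO (edgeR adjusted p = 0.0368), and the other 13 were not called. Of all genes 0.884% and 3.04% were called lower in these comparisons. Odc1, the first enzyme from ornithine to polyamines, differed by -0.27 and 0.12. In none of these lists was a gene called between genotypes or for the interaction.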

How the data were processed

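Gingival poly(A) mRNA of 12 mice was sequenced from stranded libraries. The authors deposited raw read counts per gene, with no normalization. Their methods name STAR, GRCm38 and featureCounts with reverse strand, while the submitters' processing notes name HTSeq 0.10.0, so the counting tool is not settled. The labels give a single ligature protocol for the ligated mice and no batch. Of 21965 genes, 21939 were matched to GENCODE M21. Groups came from the labels, and each library is a separate mouse. The members and lists were chosen with earlier results of these data known. A quasi-likelihood model of the 12 libraries was fitted in edgeR 4.0.16 (R 4.3.3) with TMM scaling (factors 0.918 to 1.08) and filterByExpr, which kept 15046 genes. P-values were adjusted by Benjamini-Hochberg over those genes, and genes under 0.05 were called. The SE is the log2 fold change divided by the square root of the F statistic. DESeq2 1.42.0 was the alternative, and single genes had exact permutation tests. CPM was computed with TMM, and likeness from log2 CPM with a prior count of 2. The scripts were tested on simulated data. Some genes of the chosen set are not reported here and are left out of every count of members. Genes named are the 5 members, Cybb, the 3 most similar genes per member, and called genes of the lists (the 4 with the smallest p where more were called). Other genes given with values, such as Nos3 and Odc1, were chosen after their values were seen. Counts from 27958819 to 42613423 per library set the precision of low genes, and the spread between mice, a biological coefficient of variation of 0.240, that of the rest. Alternatives were library size scaling, DESeq2 size factors, no filter on low counts, a minimum of 10 counts in every library, DESeq2, compared libraries alone, a replicate block and leaving out each library. DESeq2 on the compared libraries alone was chosen after seeing the data. Promoters came from a RefSeq table of GRCm38.p6. Python 3.11.15 made tables and figures.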

Additional observations from a re-analysis of the deposited data

How the results depend on the processing

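Of 365 alternative log2 fold changes, 8 changed sign, all of them of differences that were not called. The count of members called with ligature in WT fell from 2 to 1 with library size scaling, with the replicate block and with the compared libraries alone, and ran from 0 to 2 when single libraries were left out; it was 0 without WT naive replicate 2 and 1 without WT naive replicate 1 or any WT ligated replicate. Between genotypes in ligated tissue it was 0, and 1 with DESeq2 and with DESeq2 on the compared libraries alone. Changes of sign came from leaving out single libraries. In ligated tissue between genotypes Gch1 ran from -0.18 to 0.34, Ass1 from -0.048 to 0.11 and Slc7a2 from -0.30 to 0.11. In naive tissue Nos2 ran from -0.69 to 0.075 and Slc7a2 from -0.23 to 0.069, and the interaction of Slc7a2 ran from -0.23 to 0.22. The cause was not tested. Over all genes the calls with ligature in WT were 481, 1372 by DESeq2, 271 with the replicate block and 27 to 737 with single libraries left out; in the libraries labelled CybbKO they were 1954, and 837 to 2949. The replicate numbers mark no stated pairing. The correlation of deviations over 18 same-numbered pairs ran from -0.228 to 0.277, with 2 over 0.1. Pairs with different numbers reached -0.34 and 0.428, so these correlations cannot show whether the numbers mark a pairing. The replicate block took away the call of Ass1 in WT (adjusted p = 0.0700 in edgeR) and no other member's call. Depth limits Nos2 most, with 9 to 109 reads per library, and Nos2 was not tested with a minimum of 10 counts in every library.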

Other observations

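Of 19 cytokines and factors known to induce or repress these genes, 16 were tested (Ifng, Il4 and Il13 were too low). None was called with ligature in WT, where 3.2% of all genes were. Of all genes 9.95% were called higher with ligature in the libraries labelled CybbKO. In the libraries labelled CybbKO 6 rose, among them Stat3 (log2 fold change 0.65, edgeR adjusted p = 0.00626), the inflammatory cytokine Il1b (2.71, 0.00729) and the interferon regulatory factors Irf8 (1.502, 0.00969) and Irf1 (1.08, 0.0182). Il1b was at 22.8 ± 12.4 CPM in naive and 149 ± 44.5 CPM in ligated libraries labelled CybbKO, and at 15.5 ± 2.89 and 55.0 ± 38.9 CPM in WT (SD, n = 3). Tnf, at 5.29 ± 0.574 and 3.88 ± 2.42 CPM in ligated libraries labelled CybbKO and WT, was not called.

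Of 10 alternative activation markers, 8 were tested. None was called in WT, and Mrc1, the mannose receptor (1.53, edgeR adjusted p = 0.00575), and Il4ra, the interleukin-4 receptor chain (1.30, edgeR adjusted p = 0.00785), rose in the libraries labelled CybbKO. Those are 2 of 8, where 9.95% of all genes were called higher. Retnla was at 3.20 ± 2.27 CPM in naive and 0.301 ± 0.371 CPM in ligated libraries labelled CybbKO (SD, n = 3). Chil3 was at 0.666 ± 0.595 and 2.74 ± 2.01 CPM (SD, n = 3), with overlapping libraries. Neither gene was called. No gene of either list was called between genotypes by edgeR. In ligated tissue 15 of the 16 tested cytokines and factors lay above 0 in the libraries labelled CybbKO against WT, with a median log2 difference of 0.23 against 0.0131 over all genes. An unadjusted p under 0.05 was reached by 6 of these 16 and by 1 of the 8 alternative activation markers, against 3.34% of all genes.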
